A study of Mus musculus with 2 samples.

Results

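The cytosolic ribosomal protein genes are 84 of the 20282 gene names measured in single cells of mouse thymus. They were taken by name: Rpl or Rps followed by a digit, or Rplp0, Rplp1, Rplp2 or Rpsa, without pseudogene names carrying -ps and without the Rps6k kinases, and with at least 1000 UMIs over all cells. A UMI, or unique molecular identifier, stands for 1 captured transcript. The 84 genes comprise 46 proteins of the large subunit, 31 of the small subunit, the 6 paralogs or retrogene copies Rpl22l1, Rpl36al, Rpl37rt, Rpl7l1, Rps27l and Rps27rt, and Rps19bp1, a binding partner of Rps19 that is itself no ribosomal protein. A total of 91 names matched, and 7 of these fell below the minimum. The highest of those was Rpl6l with 597 UMIs, and the lowest gene kept was Rps19bp1 with 2794 UMIs. Summed over both libraries, all 84 genes had at least 100 UMIs in each of the 4 groups of clusters described here, the minimum set for a gene.

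Thymocytes came from mice of 6 weeks of age, and cells of 5 mice per genotype were pooled into 1 droplet library each, one labeled WT (Cdc42f/f) and one labeled KO (Cdc42f/f with CD4Cre). Both genotypes carry loxP sites in both Cdc42 alleles, and only the KO mice carry the Cre transgene, whose CD4 promoter acts from the double-positive (DP) stage, in which thymocytes display both CD4 and CD8. Earlier thymocytes and cells of other lineages in the KO mice are therefore not the intended targets of the Cre. Whether Cdc42 was deleted in them was not measured here. With 1 pooled library per condition, no difference between the libraries has a replicate check, no test was made, and differences between mice cannot be told apart from differences between genotypes. The WT library held 29706197 UMIs in 6115 cells and the KO library 37920214 UMIs in 7568 cells, with medians of 3192 and 3401 UMIs per cell, and 17 cell barcodes occurred in both. The counts per gene do not show which exons of Cdc42 the reads covered, so its level is no check of the labels. Cdc42 stood at 358 UMIs per 1000000 (CPM) in the WT library and 320 CPM in the KO library in DP clusters (log2 ratio −0.16), at 455 and 383 CPM in clusters marked by Cd5 (−0.25), at 397 and 383 CPM in cells marked by Itm2a (−0.05) and at 447 and 581 CPM in cells marked by Ms4a4b (0.38). WT and KO below mean the libraries with these labels.

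The cytosolic ribosome has a large subunit, which joins amino acids, and a small subunit, which reads the mRNA. Each of its proteins is needed in nearly equal number, and their genes are among the most strongly transcribed of any dividing or growing cell. Their mRNAs start with a short stretch of pyrimidines, the 5′ TOP motif, through which the mTORC1 pathway and the protein Larp1 set their translation and stability. Mutations in several of them, such as Rps19, cause Diamond-Blackfan anemia, and loss of Rpl22 blocks the development of alpha-beta T cells in mice.

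The starts of 7 of these genes are shown because they cover the genes described at greatest length: Rpl28, Rpl15 and Rps26, among the 5 with the lowest KO over WT ratio in the Ms4a4b cluster, Rps19, with the lowest ratio in the Itm2a cluster, Rpl38 and Rps27, which were not clearly lower in the KO library, and Rpl22l1, with the largest ratio of the Ms4a4b cluster over DP. Each stretch holds 15 bases before and 15 from the annotated RefSeq start on GRCm38.p6, 5′ to 3′ on the strand of the gene, with the longest run of C and T in capitals.
Rpl28, chr7:4792950-4792979, plus strand: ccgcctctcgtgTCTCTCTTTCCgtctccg
Rpl15, chr14:18270972-18271001, minus strand: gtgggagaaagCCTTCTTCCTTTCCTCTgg
Rps26, chr10:128626492-128626521, minus strand: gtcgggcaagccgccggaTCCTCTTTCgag
Rps19, chr7:24884577-24884606, plus strand, the first of 3 annotated starts: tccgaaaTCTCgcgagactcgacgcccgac
Rpl38, chr11:114668565-114668594, plus strand: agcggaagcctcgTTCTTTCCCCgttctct
Rps27, chr3:90213634-90213663, minus strand: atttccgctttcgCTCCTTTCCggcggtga
Rpl22l1, chr3:28805493-28805522, plus strand: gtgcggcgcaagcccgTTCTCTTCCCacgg
The longest run spanned 11 bases in Rpl28, 17 in Rpl15, 9 in Rps26, 4 in Rps19, 10 in Rpl38, 9 in Rps27 and 10 in Rpl22l1, so that both genes with low and genes with high KO over WT ratios carried a long one. RefSeq windows were found for 64 of the 84 genes. A run of at least 8 pyrimidines within 30 bases of a start was present in 34 of them (53.1%), against 25.9% of all 11780 genes of the matrix with a window. The letters CGGAAG, the core bound by ETS factors, were present on either strand in 43 of the 64 windows (67.2%) and in 32.5% of all windows, which reach from 250 bases before to 50 bases after the start. The 34 genes with a pyrimidine run had a median log2 KO over WT ratio of −0.50 in the Ms4a4b cluster and the 30 without one −0.42. These medians were −0.44 and −0.42 in the Itm2a cluster and −0.11 and −0.08 in DP. In the Ms4a4b cluster the 43 genes with CGGAAG had a median of −0.44 and the 21 without it −0.51.

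The 84 genes gave 11980555 of 67626411 UMIs, or 17.7% of all UMIs, and no cell was without a ribosomal protein UMI. Their share of UMIs differed several-fold between the 19 deposited clusters. In the WT library it was lowest in the cluster marked by Lars2, an RNA-poor, mitochondria-rich group, at 3.00% (exact 95% interval 2.94 to 3.06), and highest in the cluster marked by Ms4a4b, at 30.5% (30.5 to 30.6). The 5 DP clusters, with the highest Rag1 of any cluster, held 14.1% together, and the 2 clusters marked by Cd5, a gene induced by T cell receptor signals, held 13.8%. The Itm2a cluster, which like the Ms4a4b cluster has little Rag1 and holds cells resembling single-positive (SP) thymocytes, held 23.9%. Intervals cover counting error only, here and below, and since the clusters were made from the same cells and genes, differences between clusters are a description.

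Between libraries, the share was lower in the KO library in 17 of the 19 clusters, and the interval of the ratio lay below 0 on the log2 scale in 16 of these. In 15 of the 19 clusters the log2 ratio lay between −0.13 and 0.03. In the DP clusters the share was 14.1% in WT and 13.4% in KO, a log2 ratio of −0.08 (−0.08 to −0.08), and in the Cd5 clusters it was 13.8% and 12.9%, a log2 ratio of −0.09 (−0.10 to −0.09). In the Itm2a cluster, with 479 WT and 316 KO cells, the share was 23.9% in WT and 17.5% in KO, a log2 ratio of −0.45 (−0.46 to −0.44). In the Ms4a4b cluster, with 332 WT and 396 KO cells, it was 30.5% and 21.8%, a log2 ratio of −0.49 (−0.49 to −0.48). The largest ratio in size was in cluster 18, which is high in both Ms4a4b and Top2a and holds only 24 WT and 8 KO cells, at 23.4% and 16.5% (−0.51). Cluster 15, marked by the B cell genes Cd79a and Igkc and by Cd74, and so outside the intended targets of the Cre, had 22.3% and 18.9%, a log2 ratio of −0.24 (−0.25 to −0.22). It held 63 WT and 87 KO cells, with medians of 1202 and 4284 UMIs per cell. Cluster 16, marked by the macrophage genes C1qa and Apoe, held 30 WT and 49 KO cells. Its shares were 12.1% and 11.9%, a log2 ratio of −0.02 (−0.07 to 0.03). Clusters 11, 12, 14 and 17, proliferating or marked by early genes such as Myl10, had WT shares of 24.8% to 28.5%, between those of the Itm2a and Ms4a4b clusters, and KO over WT log2 ratios of only −0.07 to 0.01.

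**Figure D1:**
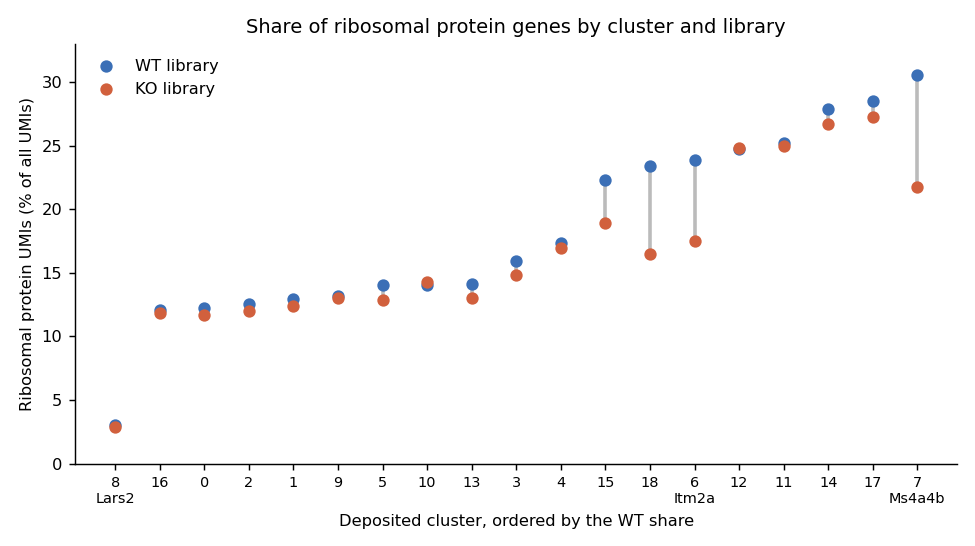
Share of ribosomal protein genes in all UMIs (vertical axis, percent) in each of the 19 deposited clusters (horizontal axis, ordered by the WT share), with 1 point for the WT library and 1 for the KO library. The KO point lies furthest below the WT point in the Ms4a4b cluster (30.5% and 21.8%), cluster 18 and the Itm2a cluster (23.9% and 17.5%).

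Cells rather than summed UMIs gave the same order. In the Itm2a cluster the median cell held 22.3% ribosomal protein UMIs in WT and 16.2% in KO, and 85.4% of the KO cells lay below the WT median. In the Ms4a4b cluster the medians were 30.3% and 21.1%, and 93.4% of the KO cells lay below the WT median, while 4.82% of the WT cells lay below the KO median. The distributions still overlapped, since in the Ms4a4b cluster 5% of WT cells lay below 21.3% and 5% of KO cells above 31.1%. Counted per cell, KO cells of the Itm2a cluster held 0.684 times as many ribosomal protein UMIs as WT cells and 1.01 times as many other UMIs. These ratios were 0.581 and 0.919 for the Ms4a4b cluster. Fewer transcripts per cell and poorer capture of these transcripts cannot be told apart.

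From DP to the Ms4a4b cluster, ribosomal protein mRNAs were higher in both libraries, by less in KO. In WT the median log2 ratio of the Ms4a4b cluster over DP was 1.08 across the 84 genes, against −0.43 across all 8517 genes with at least 100 UMIs, and in KO it was 0.70, against −0.22 across 9269 genes. A ratio of at least 0.5 was reached by 80 of the 84 genes in WT, where 12.6% of all genes reached it, and by 61 in KO, where 16.1% did. The largest WT ratios were those of Rpl22l1 (2.06), the paralog that can replace Rpl22 in the ribosome, Rpl3 (1.94), which lines the catalytic center, Rpl36a (1.86), Rps2 (1.84) and Rpsa (1.76), the small-subunit protein also known as the laminin receptor. In KO the same 5 genes stood at 1.59, 1.32, 1.04, 1.59 and 1.31. The smallest were those of Rpl7l1 (−0.26) and Rps27l (−0.14), both paralogs, and Rps19bp1 (0.19), and Rpl11 had 0.50. Rpl28 had a ratio of 0.58 in WT and −0.01 in KO, so that its KO level in the Ms4a4b cluster was that of DP cells. Of the canonical subunit proteins, that is the 77 without paralogs and Rps19bp1, none was below 0 in WT. For the Itm2a cluster over DP the medians of the 84 genes were 0.73 in WT and 0.38 in KO.

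**Figure D2:**
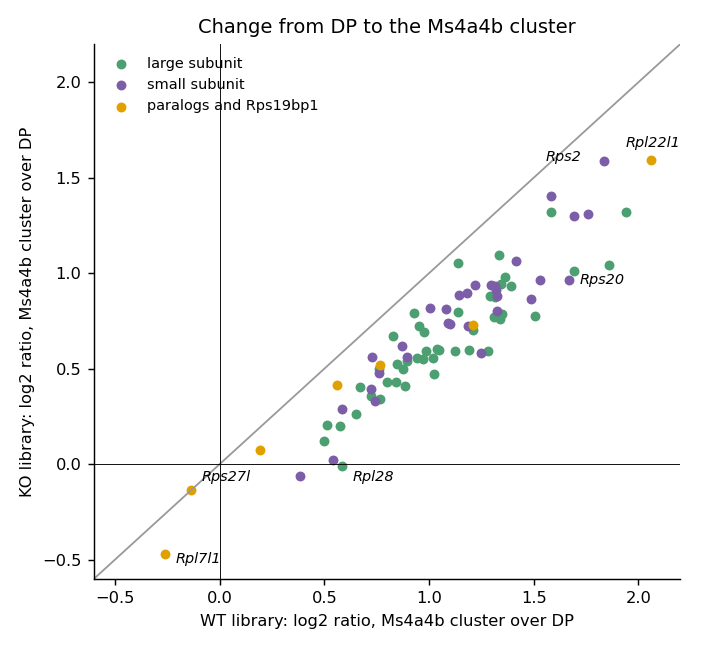
Log2 ratio of the Ms4a4b cluster over DP for each of the 84 genes in the WT library (horizontal axis) and the KO library (vertical axis), colored by subunit, with the line of equal ratios. All but 1 of the genes lie below the line, with medians of 1.08 in WT and 0.70 in KO, and Rps27l lies on it.

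Compared gene by gene between the libraries, 61 of the 84 genes were below 0 in DP, with a median log2 KO over WT ratio of −0.11, and none reached −0.5, which 0.888% of the 9907 genes with at least 100 UMIs did. In the Cd5 clusters 67 were below 0, with a median of −0.12, and none reached −0.5, against 1.02% of all genes. In the Itm2a cluster 79 of the 84 were below 0, with a median of −0.45, and 31 were at −0.5 or lower, against 3.45% of all 5793 genes. That count was 19 as a mean over cells (3.23% of all genes), 17 in cells with Cd8 but no Cd4 UMIs (5.37%) and 9 with WT cells weighted to the late-gene score of KO cells (2.59%). In the Ms4a4b cluster 79 were below 0, with a median of −0.49, and 40 were at −0.5 or lower, against 4.03% of all 5414 genes. The median of all genes was 0.04 in DP, 0.03 in Cd5, 0.15 in Itm2a and 0.23 in Ms4a4b. Of all genes, 3745 of 9907 were below 0 in DP and 2770 of 6186 in Cd5. In the Itm2a and Ms4a4b clusters these were 1581 of 5793 and 1369 of 5414. Scaled by TMM factors, which shift all genes by −0.04 in DP, −0.17 in Itm2a and −0.26 in Ms4a4b, 68 of the 84 genes were below 0 in DP, and the medians of the 84 genes became −0.62 and −0.75 in the 2 SP clusters, with 64 and 73 genes at −0.5 or lower, where 6.39% and 10.6% of all genes were. The SP cluster ratio was below the DP ratio for 83 of the 84 genes in each SP cluster, by a median of 0.35 (Itm2a) and 0.39 (Ms4a4b) on the log2 scale, while the median of this difference over all genes was 0.12 and 0.19. The same DP cells enter both of these comparisons.

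**Figure D3:**
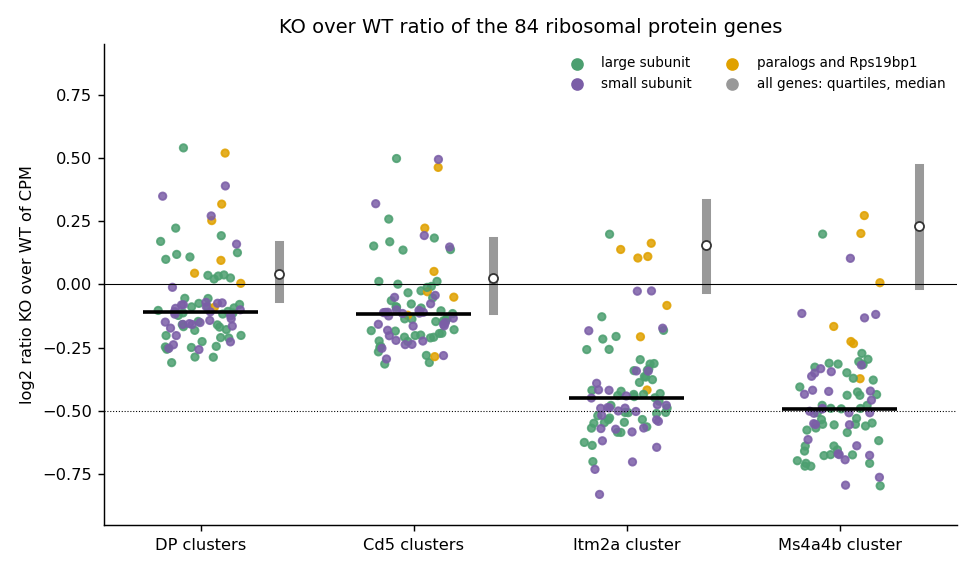
Log2 KO over WT ratio of CPM (vertical axis) for each of the 84 genes in 4 groups of clusters, colored by subunit, with the median as a black bar and the quartiles and median of all genes with at least 100 UMIs in gray beside it. The black bar is near −0.1 in the DP and Cd5 clusters and at −0.45 and −0.49 in the SP clusters, where the median of all genes is at 0.15 and 0.23. The dotted line marks −0.5.

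Both subunits were lower in KO to a similar degree. The 46 large-subunit genes made up 12.3% of UMIs in WT and 9.14% in KO in the Itm2a cluster, and 15.8% and 11.03% in the Ms4a4b cluster, with median log2 ratios of −0.44 and −0.53. The 31 small-subunit genes made up 11.4% and 8.16% in the Itm2a cluster and 14.6% and 10.6% in the Ms4a4b cluster, with median log2 ratios of −0.49 and −0.49. Ratios below 0 were found for 45 of 46 large-subunit and 30 of 31 small-subunit genes in the Ms4a4b cluster.

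Among large-subunit proteins, Rpl28 had the lowest ratio in the Ms4a4b cluster, with 4525 CPM in WT and 2606 CPM in KO, a log2 ratio of −0.80 (−0.84 to −0.75). In DP it stood at 3018 and 2624 CPM (−0.20), and in the Itm2a cluster at 3670 and 2616 CPM (−0.49), so that the KO level was nearly the same in all 3 places. Rpl15, whose mutation causes Diamond-Blackfan anemia, had 967 and 588 CPM in the Ms4a4b cluster (−0.72, −0.82 to −0.62), 832 and 580 CPM in the Itm2a cluster (−0.52) and 541 and 436 CPM in DP (−0.31), which was the lowest ratio of any of the 84 genes in DP. Rpl36a, which sits near the exit site of the ribosome, had 2170 and 1320 CPM in the Ms4a4b cluster (−0.72), 1722 and 1289 CPM in the Itm2a cluster (−0.42), and 598 and 640 CPM in DP (0.10). Its ratio thus lay above 0 in DP and among the 5 lowest in the Ms4a4b cluster. Rpl3 had 2860 and 1790 CPM in the Ms4a4b cluster (−0.68) and 2281 and 1637 CPM in the Itm2a cluster (−0.48), against 746 and 718 CPM in DP (−0.05). Rpl10, one of the last proteins to join the large subunit, had 2765 and 1752 CPM in the Ms4a4b cluster (−0.66) and 2191 and 1478 CPM in the Itm2a cluster (−0.57). Rpl7 had 1828 and 1247 CPM in the Ms4a4b cluster (−0.55) and 1450 and 1001 CPM in the Itm2a cluster (−0.53).

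Rpl5 and Rpl11 enter the large subunit together, in a particle that also binds Mdm2 when ribosome assembly is disturbed. Rpl11 had 3974 CPM in WT and 2697 CPM in KO in the Ms4a4b cluster, a log2 ratio of −0.56 (−0.61 to −0.51), and −0.38 (−0.43 to −0.33) in the Itm2a cluster. Rpl5 had 2315 and 1886 CPM in the Ms4a4b cluster, a log2 ratio of −0.30 (−0.35 to −0.24), and −0.45 (−0.52 to −0.38) in the Itm2a cluster. The order of the pair was therefore opposite in the 2 SP clusters, with intervals that overlap only in the Itm2a cluster.

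The stalk proteins Rplp0, Rplp1 and Rplp2, which recruit elongation factors to the large subunit, were all lower in KO in the SP clusters. Rplp1 had 7403 CPM in WT and 5200 CPM in KO in the Itm2a cluster (−0.51), and 8220 and 5036 CPM in the Ms4a4b cluster (−0.71, −0.74 to −0.67), against 2893 and 2945 CPM in DP (0.03, and below 0 with TMM factors). Rplp0 had 4200 and 2585 CPM in the Itm2a cluster (−0.70, −0.75 to −0.65) and 4900 and 3002 CPM in the Ms4a4b cluster (−0.71), and was also lower in DP, at 2372 and 1986 CPM (−0.26). Rplp2, at 3527 and 2601 CPM in the Itm2a cluster (−0.44) and 4564 and 3251 CPM in the Ms4a4b cluster (−0.49), lay near the median of the 84 genes. Between DP and the Ms4a4b cluster Rplp1 had a log2 ratio of 1.51 in WT and 0.77 in KO.

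Among small-subunit proteins, Rps19, required for maturation of the small subunit, had the lowest ratio of all in the Itm2a cluster, with 3228 CPM in WT and 1816 CPM in KO, a log2 ratio of −0.83 (−0.89 to −0.77). Within the Ms4a4b cluster it had 4283 and 3206 CPM, a log2 ratio of −0.42 (−0.46 to −0.37), which is above the median of the 84 genes. Rps20 was among the 5 lowest in both SP clusters, at 5303 and 3261 CPM in the Itm2a cluster (−0.70) and 6732 and 3885 CPM in the Ms4a4b cluster (−0.79, −0.83 to −0.76), with 2115 and 1989 CPM in DP (−0.09). Rps7, at 3438 and 2072 CPM (−0.73, −0.78 to −0.68), and Rps24, at 6716 and 4299 CPM (−0.64), both mutated in some cases of Diamond-Blackfan anemia, were among the 5 lowest in the Itm2a cluster. Rps26, which lines the mRNA exit channel, had 5126 and 3022 CPM in the Ms4a4b cluster (−0.76, −0.81 to −0.72) and 4155 and 2984 CPM in the Itm2a cluster (−0.48). Rps6, the substrate of the S6 kinases, had 981 and 733 CPM in the Ms4a4b cluster (−0.42) and 822 and 591 CPM in the Itm2a cluster (−0.48). Rpsa had 5298 and 3318 CPM in the Ms4a4b cluster (−0.68), Rps4x 4806 and 3283 CPM (−0.55), and Rps27a, made as a fusion to ubiquitin, 5077 and 3573 CPM (−0.51). Of these 9 small-subunit genes, all were lower in KO in both SP clusters and in DP, where their ratios lay between −0.25 and −0.09.

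Rps24, Rps29, Rplp1, Rpl41, Rpl32, Rps14, Rpl23 and Rps9 were among the genes with the most UMIs over all cells. Rps24, with 318095 UMIs the highest, had 9791 CPM in WT and 6890 CPM in KO in the Ms4a4b cluster (−0.51) and 3933 and 3609 CPM in DP (−0.12). Rpl32 had 6993 and 4446 CPM in the Ms4a4b cluster (−0.65, −0.69 to −0.62) and 4912 and 3368 CPM in the Itm2a cluster (−0.54). Rps9 had 5362 and 3365 CPM in the Ms4a4b cluster (−0.67, −0.71 to −0.63) and 4489 and 3308 CPM in the Itm2a cluster (−0.44), against 3682 and 3318 CPM in DP (−0.15). The core small-subunit protein Rps14, whose loss on one allele underlies an acquired anemia, had 5674 and 4133 CPM in the Ms4a4b cluster (−0.46). Rpl23, which binds Mdm2 as Rpl5 and Rpl11 do, had 6994 and 4560 CPM there (−0.62). All of these had ratios below 0 in both SP clusters.

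The paralogs Rpl22l1, Rpl36al and Rpl7l1 had ratios nearer to 0 than Rpl22, Rpl36a and Rpl7 in the Ms4a4b cluster. Rpl22 had 2040 CPM in WT and 1500 CPM in KO in the Itm2a cluster (−0.44) and 2671 and 1781 CPM in the Ms4a4b cluster (−0.59, −0.64 to −0.53), with 1226 and 1180 CPM in DP (−0.06). Rpl22l1, whose transcript Rpl22 is known to repress, had 851 and 637 CPM in the Itm2a cluster (−0.42) and 900 and 695 CPM in the Ms4a4b cluster (−0.37, −0.47 to −0.28), and it was higher in KO in DP, at 216 and 231 CPM (0.10, 0.02 to 0.17). Rpl36al had 404 and 350 CPM in the Itm2a cluster (−0.21) and 449 and 382 CPM in the Ms4a4b cluster (−0.23, −0.37 to −0.10), a smaller difference than that of Rpl36a in the Ms4a4b cluster, where the intervals do not overlap. Rps27l, a target of the p53 protein in stressed cells, had 318 and 300 CPM in the Itm2a cluster and 195 and 196 CPM in the Ms4a4b cluster (0.01, −0.18 to 0.20). Rpl7l1 had 143 and 124 UMIs in the Ms4a4b cluster, a log2 ratio of −0.17 with an interval of −0.53 to 0.19, and Rps19bp1 had 75 and 84 UMIs (0.20, −0.26 to 0.67), so that for these genes no difference was detectable at this depth.

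Of the 84 genes, 5 had a ratio above 0 in each SP cluster. In the Itm2a cluster these were Rpl38, Rps27rt, Rpl7l1, Rps19bp1 and Rpl37rt, with log2 ratios of 0.20, 0.16, 0.14, 0.11 and 0.10, and all but Rpl38 fell below 0 with TMM factors. Those of the Ms4a4b cluster were Rps27rt, Rps19bp1, Rpl38, Rps27 and Rps27l, with 0.27, 0.20, 0.20, 0.10 and 0.01, and all but Rps27rt fell below 0 with TMM factors. Rpl38, which favors translation of Hox mRNAs in the embryo, had 678 CPM in WT and 985 CPM in KO in DP, a log2 ratio of 0.54 (0.50 to 0.58), 1096 and 1258 CPM in the Itm2a cluster (0.20, 0.12 to 0.27) and 1490 and 1710 CPM in the Ms4a4b cluster (0.20, 0.13 to 0.27). Rps27 had 2710 and 3269 CPM in DP (0.27, 0.25 to 0.29), 3179 and 3121 CPM in the Itm2a cluster (−0.03) and 4484 and 4817 CPM in the Ms4a4b cluster (0.10, 0.06 to 0.14). The retrogene Rps27rt, at 122 and 175 CPM in DP (0.52), is a copy of Rps27, so the counting may have split reads between the pair.

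Several of these genes are short. After their values had been seen, the 83 genes with an annotated coding length were compared by it. All 11 genes with fewer than 300 coding bases, among them Rpl41, Rpl39, Rps29, Rps28, Rpl38, Rps21 and Rps27, had a ratio above 0 in DP (with TMM factors all but Rps27l), with a median of 0.22, whereas all 19 genes with 450 to 600 coding bases were below 0, with a median of −0.17. The medians of these 2 classes were 0.19 and −0.20 in Cd5, −0.13 and −0.51 in the Itm2a cluster and −0.12 and −0.55 in the Ms4a4b cluster. A difference between the libraries in the capture of short transcripts cannot be told apart from a difference in level, which bears on the values of Rpl38, Rps27 and Rps29. Over the 83 genes, Pearson's r between the log2 ratio and log2 coding length was −0.64 in DP and −0.29 in the Ms4a4b cluster. Over 8623 other genes in DP it was 0.03, and over 5109 other genes in the Ms4a4b cluster it was 0.18. The 196 other genes under 300 coding bases had a median of 0.07 in DP. In the Ms4a4b cluster the median was 0.06 for 158 other genes under 300 coding bases. It was 0.15 there for 418 of 450 to 600 bases and 0.28 for 3415 of at least 900. The points of these correlations share both libraries. Rps29 had 2990 and 3808 CPM in DP (0.35) and 6808 and 6288 CPM in the Ms4a4b cluster (−0.11), and Rpl41, the shortest with 75 coding bases, had 2438 and 2647 CPM in DP (0.12) and 5917 and 3993 CPM in the Ms4a4b cluster (−0.57). Summed over the genes with at least 300 coding bases, the KO over WT log2 ratio was −0.13 in DP, −0.15 in Cd5, −0.50 (Itm2a) and −0.53 (Ms4a4b).

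**Figure D4:**
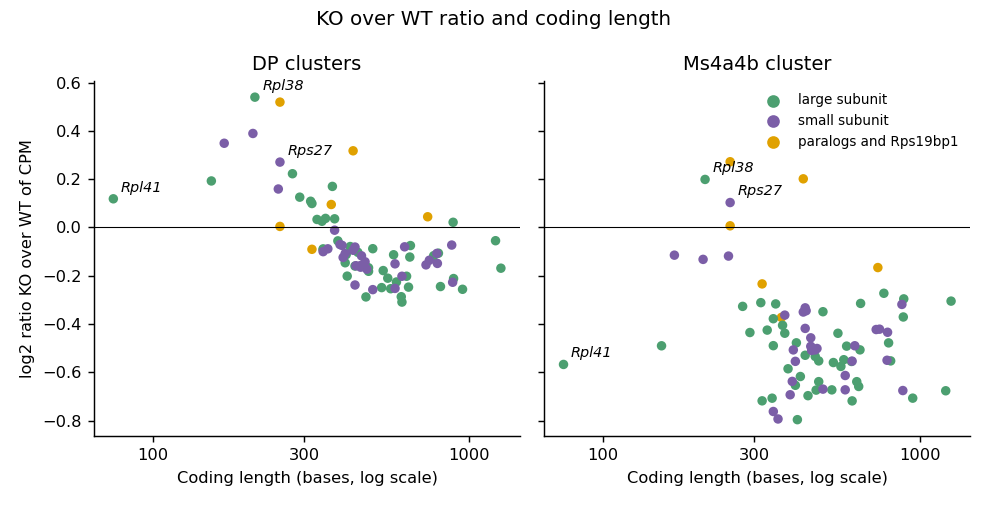
Log2 KO over WT ratio of CPM (vertical axis) against coding length in bases (horizontal axis, log scale) for the 83 genes with a coding length, in the DP clusters (left) and the Ms4a4b cluster (right), colored by subunit. In DP every gene under 300 bases lies above 0, with Rpl38 highest at 0.54, and the genes of 450 to 600 bases all lie below 0.

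Over the SP clusters together, cells with more late-gene UMIs held a higher share of ribosomal protein mRNA in WT. Each cell of the 2 SP clusters was given a late-gene score, the UMIs of 10 genes such as Klf2 and S1pr1 per 10000 UMIs that are not from ribosomal protein genes, and the cells were divided into 5 bins of equal size. In WT the share was 20.6% in the lowest bin, then 23.8%, 27.5% and 30.1%, and 31.2% in the highest. In KO it was 17.7%, 17.8%, 21.1%, 21.6% and 21.3%. KO was thus lower in each bin. The bins mix the clusters unequally, with 141 Itm2a and 7 Ms4a4b cells in the lowest WT bin and 15 and 123 in the highest. Within the Itm2a cluster the shares from the lowest to the highest bin were 19.9%, 23.1%, 26.7%, 28.2% and 25.7% in WT and 17.01%, 17.1%, 18.9%, 18.045% and 20.7% in KO, the last from 15 WT and 5 KO cells. Within the Ms4a4b cluster they were 29.6%, 27.7%, 28.8%, 31.1% and 31.7% in WT and 23.4%, 19.5%, 22.6%, 22.0% and 21.4% in KO, the first from 7 WT and 11 KO cells. KO was lower in every bin of either cluster, while the WT share varied less with the score in the Ms4a4b cluster than in the pooled bins. The median score of the Itm2a cluster was 68.9 in WT and 54.1 in KO, and that of the Ms4a4b cluster 142 and 143. The score genes themselves differed between libraries, with summed log2 KO over WT ratios of 0.27 (DP), 0.20 (Cd5), −0.20 (Itm2a) and 0.14 (Ms4a4b). Single score genes with at least 100 UMIs ranged from −1.24 to 0.70 (Itm2a) and from −0.29 to 1.30 (Ms4a4b). Whether WT and KO cells of equal score were at a like stage was not tested. When WT cells were weighted to the scores of KO cells, the summed log2 ratio went from −0.45 to −0.37 in the Itm2a cluster, with 9 of the 84 genes in place of 31 at −0.5 or lower (2.59% and 3.45% of all genes), and stayed at −0.49 in the Ms4a4b cluster, with 41 in place of 40 (3.97% and 4.03%).

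**Figure D5:**
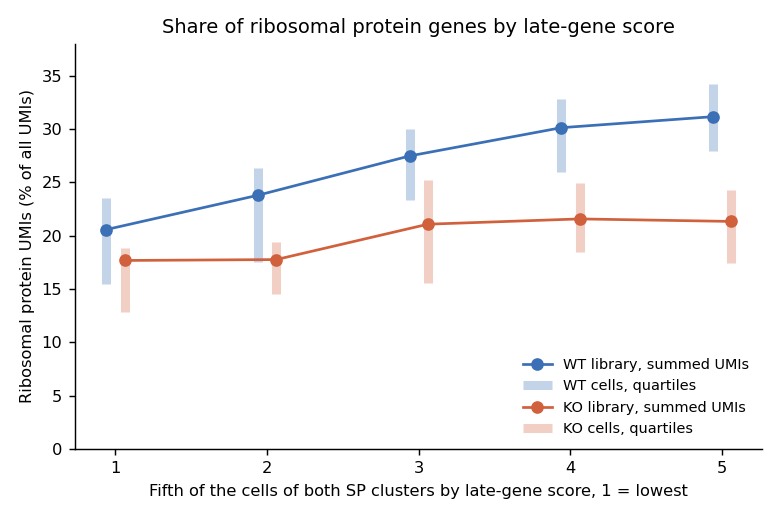
Share of ribosomal protein genes in all UMIs (vertical axis, percent) in 5 bins of the cells of both SP clusters by late-gene score (horizontal axis), for the WT and KO libraries. Points are shares of summed UMIs and bars the quartiles over cells. The WT share goes from 20.6% to 31.2% and the KO share from 17.7% to 21.3%.

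The difference was present in cells of either coreceptor. In the Ms4a4b cluster, cells with UMIs of Cd4 but not of Cd8a or Cd8b1 held 30.4% ribosomal protein UMIs in WT (76 cells) and 22.3% in KO (90 cells), and cells with UMIs of Cd8a or Cd8b1 but not of Cd4 held 31.5% in WT (106 cells) and 21.3% in KO (97 cells). In the Itm2a cluster these shares were 25.5% and 18.2% for the former and 24.3% and 18.6% for the latter. Depth differed as well, with a median of 6738 UMIs per cell in WT and 5032 in KO in the Ms4a4b cluster. Among cells with 4000 to 6000 UMIs the share was 29.1% in WT (79 cells, median 5124 UMIs) and 21.5% in KO (193 cells, median 4731) in the Ms4a4b cluster, and 21.0% (200 cells) and 16.2% (158 cells) in the Itm2a cluster. In the bins of 2000 to 4000, 6000 to 8000 and over 8000 UMIs, the shares were 27.2% and 20.6%, 30.6% and 21.2%, and 31.5% and 23.1% in the Ms4a4b cluster. The same bins of the Itm2a cluster gave 17.2% and 15.4%, 24.0% and 17.9%, and 27.9% and 19.8%. Below 2000 UMIs there were at most 6 cells of a library, and there the 3 KO cells of the Itm2a cluster were higher than the 4 WT cells (24.4% and 22.6%).

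Other genes of translation were read from lists. Fau and Rack1, ribosomal proteins outside the naming rule, were below 0 in both SP clusters. Fau, a small-subunit protein made as a fusion, had 5764 CPM in WT and 4291 CPM in KO in the Ms4a4b cluster (−0.43, −0.46 to −0.39). Of 11 elongation factors and other genes with TOP mRNAs, 9 were below 0 in the Itm2a cluster, with a median of −0.30, and 11 in the Ms4a4b cluster, with a median of −0.39. Among all genes, 1581 of 5793 were below 0 in the Itm2a cluster and 1369 of 5414 in the Ms4a4b cluster. Eef1b2, which recharges the elongation factor Eef1a1, had 2038 and 1258 CPM in the Ms4a4b cluster (−0.70, −0.76 to −0.63), and Eef1a1 itself 7237 and 5356 CPM (−0.43). Npm1, a nucleolar chaperone, had 1247 and 839 CPM in the Ms4a4b cluster (−0.57) and 1498 and 1239 CPM in the Itm2a cluster (−0.27). Hnrnpa1, at 549 and 629 CPM in the Itm2a cluster, had a log2 ratio of 0.20 (0.09 to 0.31) there, near the median of all genes, and 0.03 with TMM factors.

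The remaining lists lay nearer to the median of all genes. The 29 initiation factors had medians of 0.05 and 0.22 in the Itm2a and Ms4a4b clusters, the 37 and 33 measured genes of ribosome biogenesis 0.07 and 0.16, and the 73 proteins of the mitochondrial ribosome 0.02 and 0.10, and all 6 of these medians fell below 0 with TMM factors, to between −0.16 and −0.04. The measured genes of the mTORC1 and Myc list had medians of 0.19 over 9 genes and 0.35 over 7, which with TMM factors were 0.02 and 0.09. In the list of initiation factors Eif4b, which helps unwind mRNA for the scanning subunit and whose own mRNA has a TOP start, was the one gene at −0.5 or lower relative to total UMIs, with 166 and 106 CPM in the Itm2a cluster (−0.65, −0.89 to −0.41) and 160 and 108 CPM in the Ms4a4b cluster (−0.57). Relative to total UMIs, 3.45% (Itm2a) and 4.03% (Ms4a4b) of all genes were at −0.5 or lower. With TMM factors 4 of the 29 initiation factors were at −0.5 or lower in the Ms4a4b cluster, where 10.6% of all genes were. These were Eif4b (−0.83) and the Eif3 subunits Eif3k (−0.72), Eif3h (−0.68) and Eif3f (−0.67). Larp1 had 61.0 and 88.2 CPM in the Ms4a4b cluster (0.53, 0.22 to 0.85, and 0.27 with TMM factors, below the size of 0.5), and 75.7 and 74.9 CPM in the Itm2a cluster. Myc had 58.7 and 43.0 CPM in the Itm2a cluster (−0.44, −0.84 to −0.06) and 39.9 and 37.1 CPM in the Ms4a4b cluster.

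Over the 19 clusters of the WT library, the level of most of the 84 genes followed the sum of the others. The median Pearson's r of log2(CPM + 1) was 0.97, and 75 of the 84 genes exceeded 0.9, against 27 of 6912 other genes, whose median was −0.13. The 5 genes least like the sum were Rps19bp1 (0.08), Rpl7l1 (0.53), Rps27rt (0.75), Rps27l (0.76) and Rps27 (0.83). Rps27l had 712 CPM in the proliferating cluster 11 and 195 CPM in the Ms4a4b cluster in WT, whereas Rps27 had 2358 and 4484 CPM there. Outside the 84 genes the most alike were Eef1a1 (0.99), the pseudogene Rps23-ps1 (0.97), Eef1b2 (0.97), Rack1 (0.97) and Gm15500 (0.96). Clusters share a library and depth, so these values are a description.

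Other measures were also compared between the libraries in the SP clusters, and their part in the difference was not tested. The summed level of 5 macrophage markers was 4.26 CPM in WT and 24.98 CPM in KO in the Itm2a cluster and 6.01 and 36.6 CPM in the Ms4a4b cluster, where C1qa and C1qc were at 0 in WT. All 5 had a higher CPM in KO in the latter. Without the cells that held a UMI of these markers, the summed log2 ratio of the ribosomal protein genes was −0.46 (Itm2a) and −0.50 (Ms4a4b), and 34 and 43 genes were at −0.5 or lower (3.34% and 4.23% of all genes). Summed B cell markers were 9.50 and 15.9 CPM in the Itm2a cluster and 27.5 and 21.2 CPM in the Ms4a4b cluster, dendritic markers 22.9 and 14.3 CPM and 15.03 and 11.5 CPM, epithelial markers 7.86 and 7.97 CPM and 10.7 and 10.6 CPM with Krt5 and Psmb11 at 0, and erythroid markers 7.54 and 2.13 CPM and 7.30 and 1.32 CPM. The share of mitochondrially encoded UMIs was 3.97% in WT and 4.49% in KO in the Itm2a cluster and 3.69% and 4.16% in the Ms4a4b cluster.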

How the data were processed

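Per the labels, reads were processed with Cell Ranger 3.0.2 and Seurat on mm10, and the authors deposited raw UMI counts per gene and cell for cells with 200 to 6000 genes and at most 50000 reads, with Seurat cluster numbers at resolutions 1.5, 1.8 and 2. The cell names carry Cdc45 in place of Cdc42. The deposited mitochondrial percent was 0 throughout and was left aside. Here counts were summed by cluster (resolution 1.5) and library, divided by total UMIs (CPM), and compared as log2 KO over WT ratios after adding 0.5 to each sum, among genes with at least 100 UMIs. With 1 library per condition no p-value was computed. A ratio of 0.5 or more in size was counted. Intervals are exact 95% (Clopper-Pearson for shares, conditional binomial for ratios). The named genes are the 5 lowest and highest ratios in each SP cluster and over DP, the 5 least alike, the 10 with most UMIs, and preset genes and lists. The genes and lists were chosen with earlier results of these data known. Doublets were kept. Scrublet in scanpy 1.11.5 marked 2 cells by itself, so the 6% of cells with the highest scores were left out as an alternative. Names with -ps, 187 in number, held 78433 UMIs, 0.655% of those of the 84 genes. Coding lengths and motifs come from GENCODE vM21 and RefSeq. Scripts (Python 3.11.15, R 4.3.3) were tested on simulated data. Alternatives used edgeR 4.0.16 (TMM) and DESeq2 1.42.0 (size factors). Results for some genes are not reported here.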

Additional observations from a re-analysis of the deposited data

Results flagged for a closer look

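Clusters 10 and 12, both proliferating, had a summed log2 KO over WT ratio above 0, at 0.026 (0.020 to 0.032) and 0.0052 (0.00094 to 0.0095), whereas the Ms4a4b cluster was at −0.49. With 1 library per condition this difference between clusters was not tested.

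The 187 ribosomal protein names with -ps, which enter no comparison above, had a summed level of 1952 CPM in WT and 1405 CPM in KO in the Ms4a4b cluster, a log2 ratio of −0.47 (−0.54 to −0.41), and 940 and 909 CPM in DP (−0.05). Rps10-ps1 had the most UMIs, 7424, or 8.42% of those of Rps10, and reads of near-identical copies may have been split by the counting.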

How the results depend on the processing

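The summed log2 KO over WT ratios of the DP, Cd5, Itm2a and Ms4a4b clusters stayed below 0 under each of the alternatives run. Percentages give the share of all genes at −0.5 or lower under the same alternative. In the Itm2a cluster (−0.45, with 31 genes at −0.5 or lower and 3.45%) the ratio was −0.62 with 64 genes (6.39%) under TMM factors, −0.62 with 64 (6.35%) under DESeq2 size factors, −0.56 with 56 (5.28%) for totals without ribosomal protein and mitochondrial genes, −0.41 with 19 (3.23%) as a mean over cells, −0.37 with 9 (2.59%) for WT cells weighted to the late-gene scores of KO cells, and −0.39 with 17 (5.37%) for cells with only Cd8 UMIs. It was −0.49 for cells with only Cd4 UMIs, −0.43 without the 5% of cells with most UMIs, −0.42 for cells thinned to 1000 UMIs and −0.44 without likely doublets. In the Ms4a4b cluster (−0.49, with 40 genes and 4.03%) it was −0.75 with 73 genes (10.6%) under TMM factors, −0.71 with 72 (9.33%) under DESeq2 size factors and −0.66 with 65 (7.65%) for the reduced totals. It was −0.45 and −0.57 for cells with only Cd4 or only Cd8 UMIs, −0.46 without likely doublets and −0.50 without the cells with most UMIs. In the DP clusters (−0.08) it was −0.13 with either set of factors (TMM −0.1252), −0.10 for the reduced totals and −0.074 at resolution 2, and in the Cd5 clusters (−0.09) −0.12, −0.13, −0.11, −0.0865 when thinned and −0.0857 as a mean over cells. For 2 alternatives chosen after seeing the data, the ratios in the Cd5, DP, Itm2a and Ms4a4b clusters were −0.15, −0.13, −0.50 and −0.53 for genes with at least 300 coding bases, and without cells holding macrophage marker UMIs they moved to −0.085 in DP, −0.46 and −0.50. The causes of these shifts were not tested. Of 1520 values of single named genes under the alternatives, 1481 kept their sign, and none of the others was of a gene whose ratio had been 0.5 or more in size. Alternatives that changed only the minimum of UMIs or the set of genes could not alter these values. Resolutions 1.8 and 2 gave the same cell numbers and summed ratios in both SP clusters. The count of kept signs therefore includes values that could not differ.

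No paired analysis was possible because each condition has 1 pooled library, so no replicate was left out. Depth limits genes with few UMIs, such as Rps19bp1.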
